A study of Mus musculus with 8 samples.

Results

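The respiratory chain subunits were described in RNA of the whole mouse inner ear at postnatal day 14. Members were all gene symbols of the count files that begin with Nduf followed by a subunit letter and number, with Uqcr, with Cox4 to Cox8, or with mt-Nd, mt-Co, mt-Cytb or mt-Atp, and whose mean was at least 1 CPM (counts divided by library size, on a common scale) over 8 libraries. Of 47517 symbols 76 matched and 73 passed this minimum. They were 60 nuclear-encoded subunits, namely 37 of complex I, 8 of complex III and 15 of complex IV, and 13 mitochondrially encoded subunits, namely 7 of complex I, 1 of complex III, 3 of complex IV and 2 of the ATP synthase (complex V). Just under the minimum lay Cox7b2 at 0.612 CPM, Cox6a2 at 0.574 CPM and Cox8c at 0.00651 CPM, and the lowest members just above it were Ndufa4l2 at 3.10 CPM and Cox4i2 at 3.22 CPM.

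There were 4 libraries of wild-type mice and 4 of heterozygous littermates, called mutant below, that carry a frameshift altering the function of TRα1, the thyroid hormone receptor isoform encoded by Thra. Neither group was treated, and the sources used here state neither strain nor sex. Counts per gene cannot show the frameshift itself. Whether each library came from 1 animal, 1 ear or a pool is not stated in the labels, so p-values measure only the spread between these samples, which may be technical. Total counts were between 18930841 and 23064578 per library. Every hair cell and strial marginal cell marker listed for the inner ear was above 1 CPM in at least 1 library, with summed levels of 213 to 253 CPM for the 8 hair cell markers and 813 to 1063 CPM for the 5 strial markers. The sample titles carry 1 number in wild-type libraries 1 and 4 and mutant libraries 1 and 4, and 2 numbers in wild-type libraries 2 and 3 and mutant libraries 2 and 3. What the numbers stand for is not given in the sources used here.

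The respiratory chain passes electrons from NADH through complex I (NADH dehydrogenase), ubiquinone, complex III (the cytochrome bc1 complex) and cytochrome c to complex IV (cytochrome c oxidase), which reduces oxygen. These complexes pump protons, and the ATP synthase uses the proton gradient. Their subunits come from both genomes: the mitochondrial genome encodes core membrane subunits, and the nuclear genome encodes all others. Mechanosensory hair cells, spiral ganglion neurons and the stria vascularis, which drives the potential of the endolymph, are energy-demanding parts of the inner ear, and thyroid hormone is a known regulator of cochlear maturation and of mitochondrial gene expression in other tissues.

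Upstream sequences are shown first for 3 nuclear-encoded subunits with levels that differed between libraries with different title forms (below), to show what letters stand before genes of 3 complexes that gave like values in the same libraries. Uqcrc1 encodes a core subunit of complex III, Ndufs5 an accessory subunit of complex I and Cox6a1 the broadly expressed form of a complex IV subunit. The RefSeq sequences (GRCm38.p6) are the 250 bases before the annotated start, at chr9:108936398-108936647 (plus strand) for Uqcrc1, chr4:123718187-123718436 (minus strand) for Ndufs5 and chr5:115348959-115349208 (minus strand) for Cox6a1, written 5′ to 3′ along the gene with capitals marking matches to the NRF1 motif.
Uqcrc1: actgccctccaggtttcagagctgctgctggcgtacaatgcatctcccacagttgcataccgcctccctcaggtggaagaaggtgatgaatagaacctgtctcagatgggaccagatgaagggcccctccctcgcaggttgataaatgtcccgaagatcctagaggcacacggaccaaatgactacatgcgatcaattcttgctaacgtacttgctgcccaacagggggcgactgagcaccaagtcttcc
Ndufs5: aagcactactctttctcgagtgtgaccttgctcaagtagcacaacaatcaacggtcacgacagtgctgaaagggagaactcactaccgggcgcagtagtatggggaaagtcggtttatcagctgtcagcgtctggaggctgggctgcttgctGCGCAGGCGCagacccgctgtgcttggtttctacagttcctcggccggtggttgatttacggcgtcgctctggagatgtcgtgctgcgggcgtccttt
Cox6a1: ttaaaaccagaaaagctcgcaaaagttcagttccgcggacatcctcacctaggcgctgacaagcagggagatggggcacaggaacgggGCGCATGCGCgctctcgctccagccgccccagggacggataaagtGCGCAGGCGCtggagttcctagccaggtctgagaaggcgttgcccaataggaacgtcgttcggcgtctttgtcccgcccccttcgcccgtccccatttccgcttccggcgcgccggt
The NRF1 motif, searched on both strands, matched once in Ndufs5, beginning 98 bases before the start, and at 2 places in Cox6a1, beginning 162 and 117 bases before it. No match to any of the motifs searched stood in the bases shown for Uqcrc1. For Ndufb8, Cox5a, Ndufa9, Ndufa10, Uqcrfs1, Ndufv1, Ndufb6, Cox6b1 and Cox5b, which also differed by title form (below), none stood in the 250 bases either. NRF1 is a transcription factor known for binding promoters of respiratory chain genes.

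Promoter windows of 300 bases were found for 49 of the 60 nuclear-encoded subunits, among 27025 promoters in all. The NRF1 motif stood in 9 of the 49 windows (18.4%), against 4.78% of all promoters. The letters CCGGAAGT, bound by GABP and other ETS factors, stood in 4 windows (8.16%) against 4% of all promoters. In 2 of these 4 a match lay wholly before the start. AAGATGGCG, a motif of YY1, stood in 5 windows (10.2%) against 1.49%. Of these 5, 0 had a match wholly before the start, where 164 of 404 over all promoters did. At least 1 of the 3 motifs was found in 17 windows (34.7%), against 9.61% of all promoters. This share includes matches that do not lie wholly before the start. Besides Ndufs5 and Cox6a1, an NRF1 match lay wholly before the start in Ndufa5, Ndufa8, Ndufa11, Ndufb4 and Ndufs6. These matches describe letters in a window and not binding.

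The mitochondrial members are instead cut from shared transcripts, and some neighbours share bases, most of all mt-Atp8 and mt-Atp6. The first codon of mt-Atp6 lies inside mt-Atp8 at chrM:7927-7969 (GRCm38, plus strand), which is shown with the mt-Atp6 start codon and the mt-Atp8 stop codon in capitals.
mt-Atp8 and mt-Atp6: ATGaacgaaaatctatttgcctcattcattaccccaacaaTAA
The overlap covers 43 of the 204 bases of mt-Atp8. How reads within it were assigned is not given in the sources used here, so the counts of this pair are not fully separate. The same limit applies to mt-Nd4 and mt-Nd4l (7 bases), mt-Atp6 and mt-Co3 (1 base) and, on opposite strands, mt-Nd5 and mt-Nd6 (14 bases).

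Mitochondrially encoded subunits far exceeded nuclear-encoded ones in level. In wild-type libraries 1 to 4 the 13 mitochondrial genes took 9.15, 10.2, 10.6 and 8.95% of all counts, and in mutant libraries 1 to 4 they took 8.20, 10.4, 9.59 and 10.3%. The 60 nuclear genes together took 0.581, 0.514, 0.503 and 0.558% in wild-type and 0.540, 0.465, 0.492 and 0.555% in mutant libraries. The genotypes overlapped in both shares. The ratio of mitochondrially to nuclear-encoded counts was 18.1 ± 2.65 (SD, n = 4) in wild-type and 18.9 ± 2.96 (SD, n = 4) in mutant libraries.

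Per length, levels ran from 3111 to 20531 CPM per kb of exon among the mitochondrial genes, with a median of 7752, and from 2.83 to 264 among the nuclear genes, with a median of 55.0. By this measure every mitochondrial gene lay above every nuclear one. Nuclear medians were 46.1 CPM per kb in complex I, 79.1 in complex III and 93.8 in complex IV. With the length of the principal transcript in place of all exons the nuclear median was 82.1, so the distance between nuclear and mitochondrial levels depends on the gene model.

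**Figure D1:**
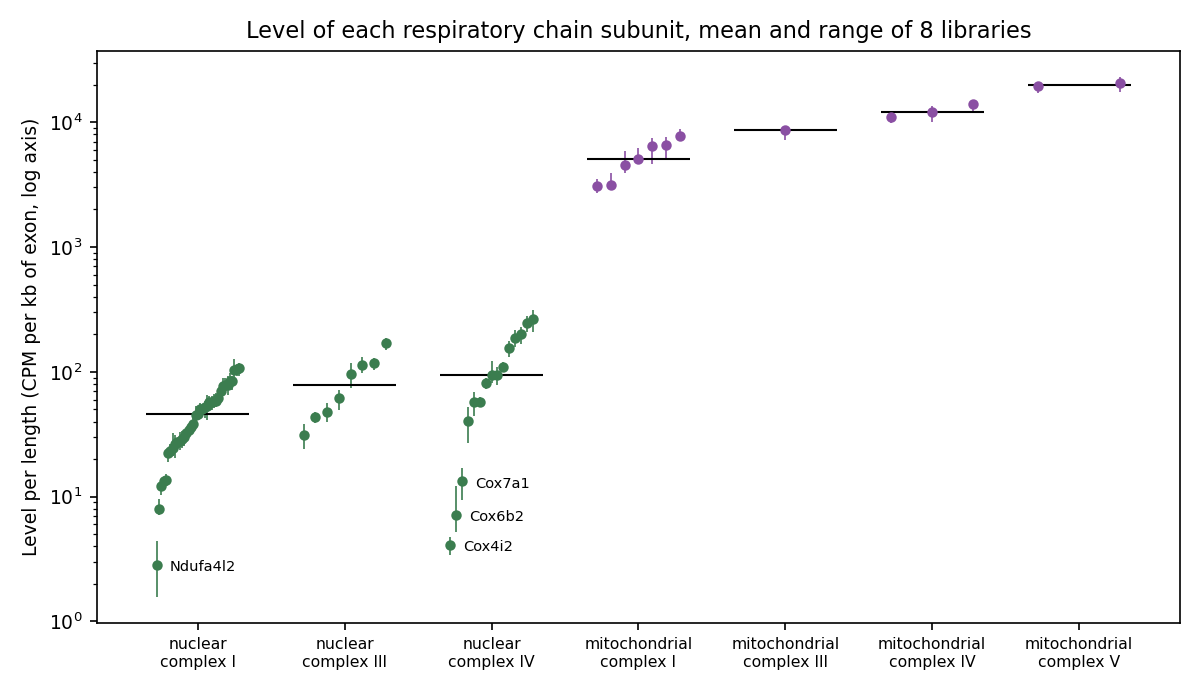
Level of each of the 73 subunits in CPM per kb of exon (log axis), by genome of origin and complex. Points are means over 8 libraries, vertical lines the range over libraries and black bars the median of each group. The nuclear points end at 264 and the mitochondrial points begin at 3111 CPM per kb.

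Within the mitochondrial genome the order followed the complexes. The ATP synthase genes mt-Atp8 (20531 CPM per kb) and mt-Atp6 (19510), which encode membrane subunits of the enzyme, were the highest. Next came the catalytic core of complex IV, with mt-Co2 at 13977, mt-Co1 at 12052 and mt-Co3 at 11040 CPM per kb. mt-Cytb, the cytochrome b of complex III, stood at 8633. The membrane subunits of complex I filled the lower end, from mt-Nd1 at 7752, mt-Nd4 at 6558 and mt-Nd4l at 6408 to mt-Nd6 at 5077, mt-Nd2 at 4550, mt-Nd3 at 3145 and mt-Nd5 at 3111 CPM per kb.

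Most neighbours in this order overlapped over the 8 libraries, but the lowest value of mt-Atp6 (17161 CPM per kb) lay above the highest of mt-Co2 (15184), and the lowest of mt-Co3 (9898) above the highest of mt-Cytb (9319). mt-Nd3 ranged from 2884 to 3913 CPM per kb and mt-Nd5 from 2731 to 3484 over the 8 libraries, and the ranges of mt-Nd4 and mt-Nd4l overlapped in the same way. mt-Nd6 is the member transcribed from the opposite strand and shares 14 bases with mt-Nd5 in antisense. Its level per length was between 1.52 and 1.83 times that of mt-Nd5 in every library. Whether the counting used strand is not stated in the sources used here, so reads from mt-Nd6 and from antisense RNA at its position cannot be told apart.

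By exon-union length, the most abundant nuclear subunits were mostly small accessory ones. In complex IV these were Cox6a1 (264 CPM per kb) and Cox8a (244), and in complex III Uqcrh (171), the hinge protein, and Uqcrb (118). Among the members placed in complex I they were Ndufa2 (107) and Ndufa4 (105). Complexes were assigned by gene symbol, which places Ndufa4 and its paralog Ndufa4l2 in complex I. Ndufa4 is found in complex IV, and the medians and counts given for complex I include both genes. Uqcrc1, a core subunit, was the lowest of complex III at 31.4 CPM per kb. Part of this order turned with the length of the principal transcript. Cox4i1 (381 CPM per kb) and Cox6a1 (324) then led complex IV, Ndufa4 (238) and Ndufa6 (154) complex I, and Uqcrq (57.2) was the lowest of complex III, with Uqcrc1 at 78.4. Uqcrh and Uqcrb led complex III by either length. The lowest of complex I was Ndufa4l2 at 2.83 and of complex IV Cox4i2 at 4.08, both paralogs known for induction by low oxygen and both the lowest by either length.

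Tissue-restricted forms were a small fraction of their broadly expressed partners. Per length, Cox4i2 was between 1.65 and 2.94% of Cox4i1 over the 8 libraries, and Ndufa4l2 between 1.47 and 4.08% of Ndufa4. Cox6b2, known from testis, was 2.31 to 6.16% of Cox6b1. The forms known from striated muscle and heart were less rare: Cox7a1 was 9.33 to 14.5% of Cox7a2, and Cox8b 12.1 to 20.5% of Cox8a. Cox6a2, the muscle form of Cox6a1 and below the level minimum, was 0.116 to 0.516% of it. The 12 skeletal muscle markers summed to 15.2 to 30.0 CPM and none was at 0 in every library. Whether muscle RNA contributed to these forms was not tested.

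Levels of most subunits varied little among wild-type libraries. The median coefficient of variation over the 4 wild-type libraries was 9.33% for nuclear and 7.54% for mitochondrial members, against 11.4% for all tested genes with a mean of at least 10 CPM.

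The comparison of mutant with wild type asks whether altered TRα1 function changes the RNA of the respiratory chain. No subunit was called higher or lower. With edgeR's quasi-likelihood test and Benjamini-Hochberg adjustment over 21392 genes, 9 genes (0.0421%) had an adjusted p under 0.05, 1 higher and 8 lower in the mutant, and 0 of the 73 subunits was among them. None of the 73 had an unadjusted p under 0.05, against 5.30% of all genes, and for none did the 4 mutant and the 4 wild-type libraries fail to overlap, against 2.69% of all genes. DESeq2, which called 0.318% of all genes, called 0 subunits, and so did limma-voom, which called 0.0795%. At an unadjusted p under 0.05 both tools also had 0 subunits, against 6.43% of all genes with DESeq2 and 5.89% with limma-voom. In simulated libraries of this size and spread, 45% of genes changed 2-fold were recovered and 92% of those changed 4-fold. The changed genes were drawn from those with a mean of at least 1 CPM, and the shares were not computed at the level of the subunits.

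Most nuclear subunits leaned slightly downward without passing the test. The log2 fold change was negative for 50 of 60, with a median of -0.079, where 51.7% of all genes were negative with a median of -0.0061. By complex it was negative for 31 of 37 in complex I (median -0.057), 7 of 8 in complex III (-0.097) and 12 of 15 in complex IV (-0.10). Left-out libraries changed this balance: without mutant library 2 the median was -0.018 with 38 of 60 negative, without wild-type library 1 it was -0.027 with 39 negative, and without mutant library 4 it was -0.13 with 56 negative. The mitochondrial subunits were negative for 8 of 13, with a median of -0.013, and this median took either sign when single libraries were left out, from -0.064 without mutant library 4 to 0.059 without mutant library 1. The difference between the nuclear and mitochondrial medians was not tested.

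In complex I, Ndufa12 had the smallest unadjusted p of all subunits. It encodes an accessory subunit of the NADH-oxidizing arm, and its level was 77.6, 76.5, 68.5 and 83.0 CPM in wild-type libraries 1 to 4 and 70.2, 64.9, 64.4 and 73.3 CPM in mutant libraries 1 to 4. Mutant libraries 1 and 4 lay within the wild-type range and the other two just below it. The log2 fold change was -0.16 ± 0.082 (SE) with an unadjusted p of 0.078 and an adjusted p of 0.925 in edgeR. Ndufs6, an accessory subunit of the same arm that helps hold its zinc ion, had 45.8, 43.0, 35.7 and 47.7 CPM in wild-type and 37.6, 35.6, 34.3 and 41.3 CPM in mutant libraries. This gave -0.21 ± 0.11 (SE) on the log2 scale. Wild-type library 3 lay among the mutant values.

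Among the core subunits of complex I, Ndufs1 and Ndufv1 had small values with standard errors of similar or larger size. Ndufs1, which carries iron-sulfur clusters, had a log2 fold change of -0.0033 ± 0.084 (SE), and Ndufv1, which binds the flavin that accepts electrons from NADH, one of -0.12 ± 0.12. The most positive value of any subunit was that of Ndufa4l2, at 2.92, 1.73, 3.11 and 2.52 CPM in wild-type and 3.46, 2.29, 4.01 and 4.80 CPM in mutant libraries. Mutant library 2 lay inside the wild-type range and the other 3 mutant libraries above it. This gave 0.50 ± 0.27 (SE) on the log2 scale, with an adjusted p of 0.929 in edgeR, at between 33 and 91 counts per library.

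In complex III the largest negative value was that of Uqcr11, a small subunit, with a log2 fold change of -0.18 ± 0.12 (SE), and the only positive one that of Uqcrb, at 0.0056 ± 0.087. Uqcrc1 and the Rieske iron-sulfur protein Uqcrfs1 stood at -0.089 ± 0.18 and -0.097 ± 0.13. All 4 had an unadjusted p above 0.05, and wild-type and mutant libraries overlapped for each.

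In complex IV the 3 most negative values belonged to tissue-restricted forms, and so did the most positive. The latter was that of Cox4i2, with a log2 fold change of 0.14 ± 0.17 (SE). Cox6b2 was at 6.76, 13.4, 7.15 and 8.94 CPM in wild-type and 7.74, 7.65, 5.94 and 5.80 CPM in mutant libraries. Its mean rested on wild-type library 2, and the log2 fold change was -0.42 ± 0.23 (SE). Cox8b was at 16.1, 17.4, 12.7 and 18.7 CPM in wild-type and 10.6, 14.5, 9.75 and 15.7 CPM in mutant libraries, which gave -0.36 ± 0.18 (SE) on the log2 scale. Mutant libraries 1 and 3 lay below all wild-type values and the others among them. Cox7a1 had a log2 fold change of -0.32 ± 0.21 (SE), and the broadly expressed Cox4i1, Cox6a1, Cox7a2 and Cox8a had values of -0.081, -0.12, -0.079 and -0.11. The summed skeletal muscle markers overlapped between genotypes, from 17.9 CPM upward in wild-type and from 15.2 CPM upward in mutant libraries, with 9 of 11 tested markers negative and none called, and their part in the values of Cox8b and Cox7a1 was not tested.

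The mitochondrial genes showed no common direction by genotype. Of the complex I genes 5 of 7 were positive, from mt-Nd3 at 0.10 ± 0.12 (SE) to mt-Nd4l at -0.086 ± 0.17. mt-Co1, mt-Co2 and mt-Co3 stood at -0.013, -0.067 and -0.059, mt-Cytb at -0.039, and mt-Atp6 and mt-Atp8 at -0.030 and -0.012. All of these were smaller than their standard errors, which lay between 0.11 and 0.17. Mutant library 1 was the lowest of all 8 for mt-Co1, at 15404 CPM, where the others lay between 16809 and 20960.

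Genes around the chain had no called differences by genotype either, where 0.0421% of all genes tested were called. At that share, 0 calls in short lists says little about them. None was called of 4 complex II genes, 17 nuclear ATP synthase genes, 38 assembly factors, 77 mitochondrial ribosomal proteins or 22 genes of mitochondrial DNA expression and biogenesis. Their median log2 fold changes were -0.035, -0.047, 0.0015, -0.053 and -0.021. Esrra, a nuclear receptor that activates many respiratory chain genes, had a log2 fold change of -0.25 ± 0.097 (SE), with an unadjusted p of 0.0319 and an adjusted p of 0.924 in edgeR. The summed haemoglobin share was 1.29 to 4.88% in wild-type and 0.781 to 1.90% in mutant libraries. With haemoglobin counts left out of the total, the nuclear subunit share was 0.553 ± 0.036% (SD, n = 4) in wild-type and 0.520 ± 0.041% (SD, n = 4) in mutant libraries, with overlapping ranges.

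**Figure D2:**
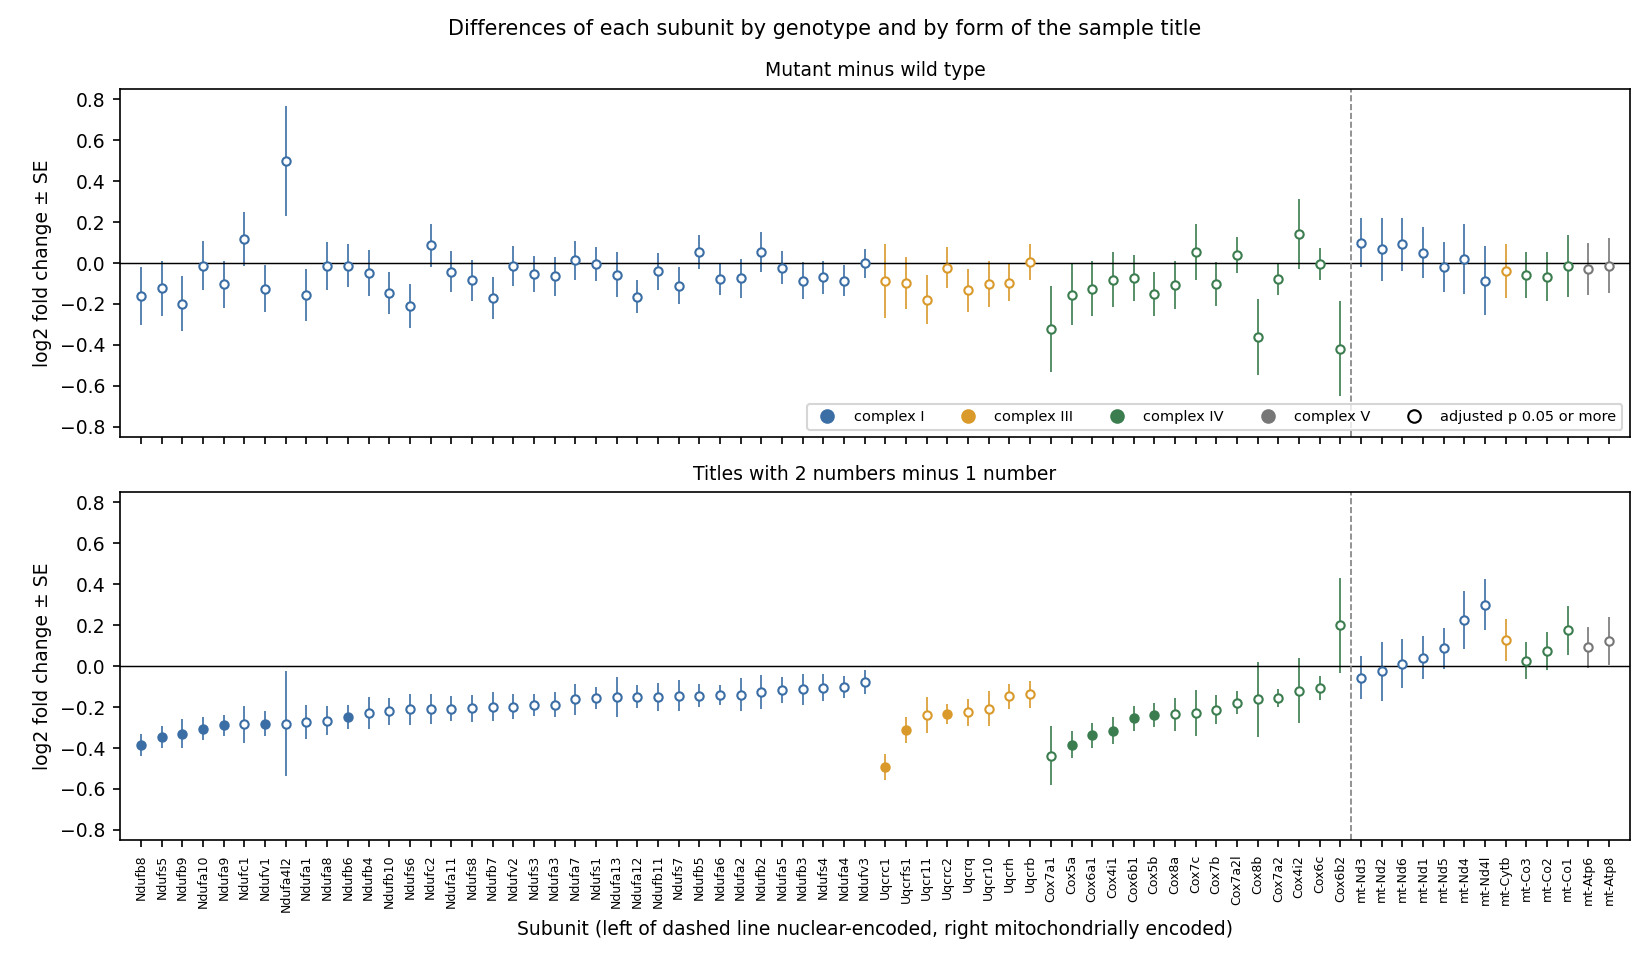
Log2 fold change of each of 72 subunits with its standard error, by genotype (upper panel) and by form of the sample title (lower panel), coloured by complex and ordered within each complex by the lower panel. Filled points have an adjusted p under 0.05 in edgeR: 0 by genotype, and 15 nuclear subunits by title form.

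Libraries of both genotypes separated by the form of their titles in nuclear subunit RNA. The 4 libraries with 1 number had 0.540 to 0.581% of their counts in nuclear subunits, and the 4 with 2 numbers 0.465 to 0.514%, without overlap. The mitochondrial share overlapped, at 8.20 to 10.3% and 9.59 to 10.6%. The ratio of mitochondrially to nuclear-encoded counts was 15.2 to 18.6 with 1 number and 19.5 to 22.4 with 2, without overlap. The nuclear genotype difference was of the same sign within each title form, at -0.022 percentage points among titles with 1 number and -0.030 among titles with 2. It was smaller than the difference of -0.065 percentage points between the title forms.

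**Figure D3:**
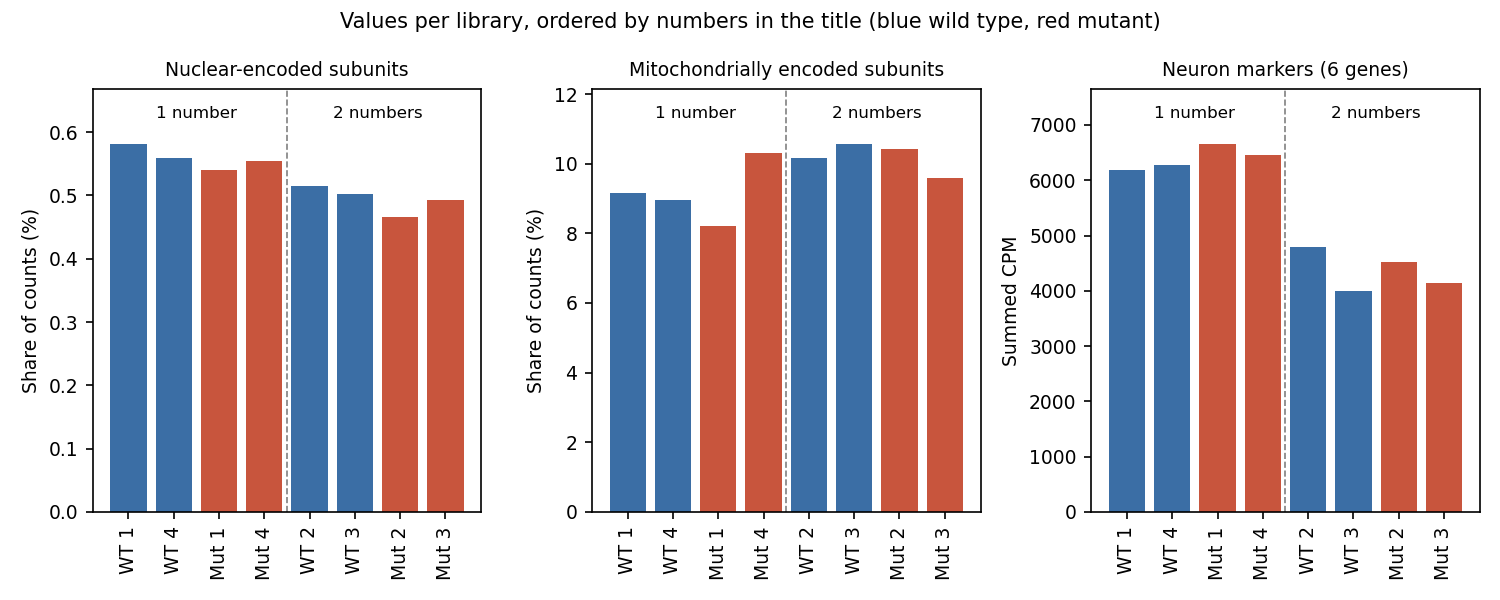
Share of counts in nuclear-encoded subunits, share in mitochondrially encoded subunits, and summed CPM of 6 neuron markers in each library, with wild type in blue and mutant in red. Libraries are ordered by the numbers in their titles. Nuclear shares of titles with 1 number all lie at 0.540% or above and those with 2 numbers at 0.514% or below, and the neuron markers separate in the same way.

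A comparison of titles with 2 numbers against titles with 1 number, with genotype as a covariate, was made after the values per library had been seen, so its p-values describe these libraries and were not planned. The log2 fold change was negative for 59 of 60 nuclear subunits, all but Cox6b2, with a median of -0.21, where 50.8% of all genes were negative with a median of -0.0067. Of genes with a mean of at least 10 CPM 57.8% were negative, with a median of -0.046. The edgeR test called 16 of the 60 lower and none higher, where 2.90% of all genes tested were called lower, and 4.73% of those with a mean of at least 10 CPM. For 28 of the 60 all libraries with 2 numbers lay below all libraries with 1, against 7.90% of all genes and 1432 of the 12465 with a mean of at least 10 CPM. The called subunits were 8 of 37 in complex I, 3 of 8 in complex III and 5 of 15 in complex IV, and the medians of the complexes were -0.20, -0.23 and -0.23. Of the mitochondrial subunits 0 of 13 was called in either direction, where 9.39% of all genes were, 11 were positive and the median was 0.086.

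Uqcrc1, in the chr9:108936633-108949623 gene (GRCm38, plus strand), showed the largest difference. Its level was 156, 152, 157 and 140 CPM in the libraries with 1 number (wild type 1 and 4, mutant 1 and 4) and 118, 107, 99.1 and 106 CPM in those with 2 numbers (wild type 2 and 3, mutant 2 and 3). The lowest value with 1 number, 140 CPM, lay above the highest with 2, 118 CPM. The log2 fold change was -0.49 ± 0.064 (SE), with an adjusted p of 0.00943 in edgeR, and it stayed under the threshold with any single library left out, at adjusted p-values up to 0.0404. The other called subunits of complex III were Uqcrfs1, at -0.31 ± 0.065, and the core subunit Uqcrc2, at -0.23 ± 0.048, each of which passed in 1 of 8 fits with 1 library left out, at adjusted p-values up to 0.111 in edgeR.

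In complex I, Ndufb8, an accessory subunit of the membrane arm, was at 98.2, 95.1, 88.3 and 91.4 CPM with 1 number and 77.8, 76.7, 63.6 and 67.9 CPM with 2 numbers. The lowest of the first 4 lay above the highest of the others. The log2 fold change was -0.39 ± 0.053 (SE), with an adjusted p of 0.00996 in edgeR and of 0.0509 without mutant library 1. Ndufs5, with an NRF1 match in the upstream bases shown, was at 79.9, 76.6, 69.9 and 77.4 CPM against 64.1, 62.7, 56.4 and 56.3 CPM, and its log2 fold change was -0.35 ± 0.055 (adjusted p 0.0149 in edgeR). Its adjusted p rose to 0.0598 without wild-type library 1, to 0.0541 without mutant library 1 and to 0.0525 without mutant library 2. Also called in complex I were Ndufb9, Ndufa10, Ndufa9, Ndufv1 and Ndufb6, with log2 fold changes from -0.33 to -0.25. They include the core subunit Ndufv1 as well as accessory ones. With 1 library left out, Ndufa10 and Ndufa9 passed in 3 of 8 fits and Ndufb9, Ndufv1 and Ndufb6 in 1 of 8, at adjusted p-values up to 0.162 in edgeR.

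In complex IV the called subunits were Cox5a, Cox6a1, Cox4i1, Cox6b1 and Cox5b, all broadly expressed forms. Cox5a was at 145, 133, 136 and 130 CPM with 1 number and 119, 110, 96.2 and 93.4 CPM with 2 numbers, again without overlap. Its log2 fold change was -0.38 ± 0.067 (SE), with an adjusted p of 0.0185 in edgeR. Cox6a1 was at 218, 207, 195 and 206 CPM against 178, 169, 147 and 161 CPM, a log2 fold change of -0.34 ± 0.060. Cox4i1, the regulatory subunit 4, was at 337, 321, 309 and 324 CPM against 290, 249, 253 and 246 CPM, a log2 fold change of -0.32 ± 0.067. Of the 8 fits with 1 library left out, Cox5a and Cox6a1 passed in 3, Cox4i1 and Cox5b in 1 and Cox6b1 in 0, at adjusted p-values up to 0.170 in edgeR. Cox4i1 shares its whole span with the gene model Gm20388 on the same strand, and Ndufb8 and Ndufb9 share 4260 and 3604 bp with Gm20538 and Gm49356, so reads of these pairs may have been divided or left out in the counting.

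**Figure D4:**
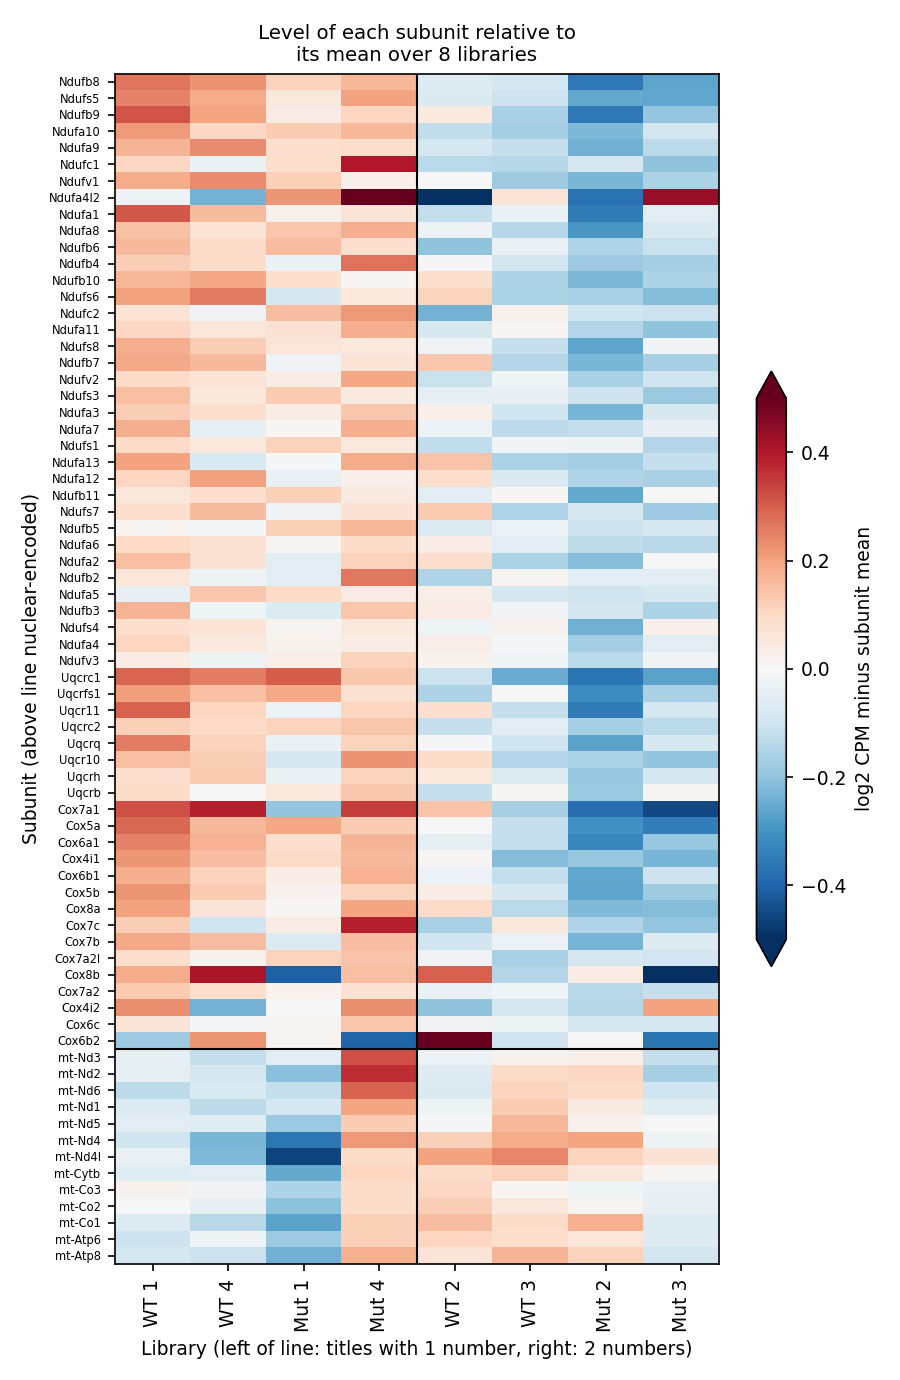
Log2 CPM of each of 72 subunits (rows) in each library (columns) minus the mean of that subunit over the 8 libraries, with red above and blue below the mean. Libraries with 1 number in the title stand left of the vertical line and those with 2 right of it, and mitochondrial genes stand below the horizontal line. Most nuclear rows are red at the left and blue at the right, and the mitochondrial rows show no such split.

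The number of called subunits depended on single libraries, and its direction did not reverse in any of them. Called lower were 2 of the 60 without wild-type library 1 (0.329% of all genes), 14 without wild-type library 2 (2.28%), 11 without wild-type library 3 (1.10%) and 4 without wild-type library 4 (0.308%). They were 1 without mutant library 1 (0.137% of all genes), 2 without mutant library 2 (0.373%), 6 without mutant library 3 (0.628%) and 4 without mutant library 4 (0.599%). Mutant library 1 thus moved the count most. The median over the nuclear subunits stayed between -0.23 and -0.17, and at least 58 of 60 were negative. Within the wild-type libraries alone it was -0.15 and within the mutant libraries alone -0.21, with 59 of 60 negative in each and 0 called at 2 libraries against 2, where 0% of all genes were called lower. DESeq2 called 25 subunits lower (5.60% of all genes), and edgeR without TMM scaling called 9 (1.25%).

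For no subunit was a change of the genotype difference with the title form called. In a fit with an interaction of genotype and title form 0 of 73 subunits was called, where 17 genes (0.0795%) were. With 2 libraries per genotype in each title form, this count does not show that the genotype difference was alike in both. No subunit had an unadjusted interaction p under 0.05 in edgeR, and the share of all genes at that threshold was not computed. With the title form as a covariate in the genotype comparison 0 subunits were called, against 0.0234% of all genes, and 8 had an unadjusted p under 0.05, against 7.63% of all genes. In that fit 50 of 60 nuclear subunits had a negative value.

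Other nuclear genes of oxidative phosphorylation had the same sign by title form. Beside 50.8% of all genes negative and 2.90% called lower, all 17 ATP synthase genes were negative, with 7 called lower, among them the c-ring genes Atp5g3 (-0.45 ± 0.060 SE) and Atp5g1 (-0.43 ± 0.069) and the catalytic β subunit gene Atp5b (-0.37 ± 0.063). All 4 complex II genes were negative with 2 called lower, Sdhb at -0.28 ± 0.056 and Sdhd at -0.26 ± 0.064. Cyc1, the haem-bearing cytochrome c1 of complex III, which the symbol pattern leaves out, was called lower at -0.40 ± 0.060. Of 77 mitochondrial ribosomal protein genes 66 were negative, 7 were called lower and 1, Mrpl24, higher (0.29 ± 0.065).

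Genes that build or regulate the chain had values of mixed sign by title form. Of 38 assembly factors 27 were negative with none called lower, and Cox20 (0.73 ± 0.081 SE) and Nubpl (0.45 ± 0.091), which insert subunits or iron-sulfur clusters, were called higher. Of 22 genes of mitochondrial DNA expression and biogenesis 16 were positive and 4 were called higher: Nrf1 (0.49 ± 0.079), which encodes the factor whose motif was searched, Polg2 (0.63 ± 0.15), Gabpb1 (0.33 ± 0.064) and Pnpt1 (0.27 ± 0.068). Over all genes 1389 (6.49%) were called higher.

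Most markers of neurons had the same sign as the nuclear subunits. The 6 markers summed to 6177 to 6653 CPM in libraries with 1 number and 3999 to 4784 CPM in those with 2. Of the 6, 5 were negative and 4 were called lower, where 2.90% of all genes were. The called ones had log2 fold changes of -0.56 for Nefl, -0.59 for Nefm, -0.61 for Nefh and -0.50 for Tubb3. The 1 positive marker stood at 0.071 and was not called. No neuron marker was at 0 in every library. The hair cell markers summed to 213 to 246 and 213 to 253 CPM, the Schwann cell markers to 5717 to 10126 and 6822 to 8868 CPM and the red cell markers to 11015 to 25827 and 7679 to 49875 CPM, all overlapping. Other lists had one-sided values with overlapping sums. Of the strial marginal cell markers 4 of 5 were negative (median -0.24) and 1, Kcnq1, was called higher, with sums of 937 to 1062 CPM with 1 number and 813 to 1063 CPM with 2. All 6 neutrophil markers were positive (median 0.45) and 9 of 11 skeletal muscle markers negative (median -0.37), with none called in either list. In RNA of a whole organ, fewer cells of a type and less RNA per cell cannot be told apart, and the part of these cell types in the subunit values was not tested. Eif2s3y, a Y-linked gene, had 545, 520 and 530 counts in wild-type libraries 2 and 3 and mutant library 3, all with 2 numbers in the title, and at most 2 counts elsewhere. Libraries with Y-linked RNA were thus spread unevenly over the title forms and over the genotypes. The X-linked subunits Ndufa1, Ndufb11 and Cox7b had a median of -0.21 by title form, the same as the nuclear subunits as a whole. None was called, where 2.90% of all genes were called lower. Of these 3 subunits, 2 had an unadjusted p under 0.05 in edgeR, against 26.9% of all genes. For 2 of them all libraries with 2 numbers lay below all with 1, against 7.90% of all genes. The part of sex in the values by title form and by genotype was not tested.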

How the data were processed

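Whole inner ear RNA was measured in 8 libraries, 4 per genotype, prepared by a kit with unique molecular identifiers, per the labels. The authors deposited whole-number counts per gene symbol, not normalized. FastQC, STAR, HTSeq and the build mm10 are named per the submitters' processing notes. The sources used here do not state the annotation, the strand setting, the counting options or whether molecular identifiers were used.

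Totals were 18930841 to 23064578 counts per library, so 3 counts corresponded to 0.130 to 0.158 CPM, a floor that covers counting error only. Chi-square per degree of freedom was at least 20.7 for every pair of libraries of a genotype, so none was counted as a duplicate. Counts were tested with edgeR 4.0.16 in R 4.3.3 (quasi-likelihood with robust estimation, TMM scaling, filterByExpr, Benjamini-Hochberg adjustment over 21392 genes, threshold 0.05). All 73 members passed the filter. CPM in the text is scaled by TMM, except in the membership rule and the shares of counts, which use library totals. The procedure was tested on simulated counts. DESeq2 1.42.0, limma 3.58.1 and other scalings and filters were alternatives. Gene models are GENCODE M21 (GRCm38) and promoters RefSeq GRCm38.p6. Level per length used the union of exons.

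The members, lists and comparisons were chosen with earlier results of these data known. Named genes were all mitochondrial members, per complex the extremes of level and fold change, the 10 smallest p-values, paralog pairs and core subunits, and for other lists the smallest p-values. Subunits and list genes called by title form, and neuron markers, were added after their values had been seen. Values of 1 subunit are not reported here by name. The counts and medians include it.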

Additional observations from a re-analysis of the deposited data

Results flagged for a closer look

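In 3 of 152 groups of 4 libraries tested, a subunit had 1 library far from the rest of its genotype by Dixon's criterion, where chance flags about 1 in 20 groups, here 7.6. mt-Nd4l was lowest in mutant library 1, at 1366 CPM, where the nearest mutant library had 1981 CPM. Ndufb2 was highest in mutant library 4, at 53.5 CPM, where the nearest had 43.0 CPM. Ndufs4 was lowest in mutant library 2, at 50.9 CPM, where the nearest had 60.5 CPM. None of these subunits was called by genotype or by title form.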

How the results depend on the processing

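No subunit was called by genotype under any of the alternatives run. Of 800 values of named subunits by genotype 767 kept their direction and side of the threshold, and of 588 by title form 448 did, 125 lost the call and 15 reversed. The cause was not tested. Depth limits the low members, such as Ndufa4l2 with 33 to 91 counts.

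Over all genes by genotype, 19 were called higher and 49 lower with DESeq2, 5 higher with limma-voom, 5 lower without robust estimation, 4 lower with the title form as covariate, and 2 to 5 higher and 4 to 9 lower with 1 library left out. By title form, 268 genes were called lower with library size only, 294 without a filter and 1197 with DESeq2; 224 to 1141 were higher and 30 to 499 lower with 1 library left out; and 0 were higher and 0 lower within wild-type or within mutant libraries alone. Called subunits were 9 with library size only, 25 with DESeq2, 1 to 14 with 1 library left out and 0 within either genotype. The complex I median by title form was -0.14 within wild-type libraries.

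Reversals were of uncalled values near 0. By genotype Ndufs1 was 0.0027 without a filter. With 1 library left out the genotype values ran from -0.0065 to 0.085 for Cox7a2l, -0.044 to 0.044 for Ndufs1, -0.039 to 0.065 for Uqcrb, -0.22 to 0.0096 for Uqcrc1, -0.077 to 0.022 for mt-Atp6, -0.078 to 0.059 for mt-Atp8, -0.078 to 0.065 for mt-Co1, -0.083 to 0.033 for mt-Cytb, -0.0095 to 0.10 for mt-Nd1, -0.061 to 0.14 for mt-Nd2, -0.0018 to 0.15 for mt-Nd3, -0.050 to 0.13 for mt-Nd4, -0.17 to 0.034 for mt-Nd4l and -0.064 to 0.038 for mt-Nd5. By title form mt-Nd2 was 0.023 with library size only and 0.089 within wild-type libraries, mt-Nd3 0.083 within wild-type libraries, and mt-Nd1 -0.045 and mt-Nd6 -0.080 within mutant libraries. Left-out libraries moved the title values from -0.017 to 0.082 for mt-Co3, -0.012 to 0.12 for mt-Nd1, -0.11 to 0.12 for mt-Nd2, -0.10 to 0.049 for mt-Nd3 and -0.049 to 0.12 for mt-Nd6.

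A replicate block that pairs libraries with neighbouring title numbers called 17 genes higher and 12 lower, and 0 subunits, with 8 at an unadjusted p under 0.05 where 13.6% of all genes were. Deviations of paired libraries correlated at 0.13, 0.25, 0.19 and -0.038 in blocks 1 to 4. Those of other pairs of a wild-type and a mutant library lay between -0.15 and 0.15, and most were negative. Block 4 showed no positive correlation, and wild-type library 4 correlated best with mutant library 1, so the numbers were not taken to pair samples.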
